A study of Mus musculus with 36 samples.

Results

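Nanog binding after 3 passages in 2i was set against Nanog binding after 24 h in 2i, in KH2 mouse embryonic stem cells, to ask what early 2i binding shares with settled 2i binding. The members are the regions called for Nanog at either time on chromosomes 1 to 19 and X, with peaks of both lists merged wherever they overlapped by at least 1 bp. There were 46466 such regions, of 84927 regions called in any of the 14 peak lists of the series. Each time is represented by 1 list of peaks, made from 2 samples in the labels, and both used the same lot of Nanog antibody (20100713). So 4 of the 36 samples of the series stand behind the comparison. KH2 is an established embryonic stem cell line. The cells were kept in serum medium with LIF on a layer of irradiated feeder fibroblasts, and the 2i medium also held LIF. The sources used here do not say whether feeders were kept in 2i. The labels mark the 24 h cultures of this lot as v1 and those of the other lot as v3, without saying what these marks stand for. Other lists of the series were used only to describe the regions. These were Nanog in GFP-high serum cells, in 24 h 2i and in DNA methyltransferase triple knockout (TKO) cells at 24 h of 2i, all with a second antibody lot; Nanog in standard serum, called unsorted serum here, with the first lot; Sox2 and H3K4me3 in serum, at 24 h and at 3 passages; and Oct4 in serum and at 24 h. The lists of the second lot, of Oct4 and of Sox2 at 3 passages have 1 sample each in the labels, which do not say what the GFP reports.

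Nanog is a homeodomain transcription factor that helps to hold embryonic stem cells in self-renewal. It often binds with Sox2, an HMG-box factor, and Oct4, a POU factor, at enhancers, and less often at promoters. 2i medium blocks the kinases MEK and GSK3 and moves the cells to a more uniform, naive state. H3K4me3 is a histone mark found mainly at the promoters of active or poised genes and is used here as a stand-in for promoter position.

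Each time has 1 list and no list per replicate was used here, so no difference between 3 passages and 24 h could be set against the spread between cultures, and no test was made. Shares of regions carry exact binomial (Clopper-Pearson) 95% intervals. These cover counting error only, and regions are not replicates. The lists hold no counts, so read depth is unknown. Nothing in the labels says whether the 2 samples of a time were separate cultures, and with peaks alone the cell type could not be checked against marker genes. On the chromosomes used there were 33184 peaks at 3 passages and 41729 at 24 h, and the median peak was 662 bp wide at 3 passages and 621 bp at 24 h. The lowest −log10 q in the lists was 12.8 at 3 passages and 16.0 at 24 h. The lists also differed in which other sequences held peaks. The 3 passage list held 1 peak on chromosome Y and 25 on unplaced contigs, against 26 and 0 in the 24 h list. Nanog in unsorted serum had 21 and 0, like the 24 h list. The lists of the second lot had 0 and 33 in GFP-high serum cells, 0 and 22 in KH2 cells at 24 h and 2 and 42 in TKO cells. For Sox2 the counts were 0 and 19 at 3 passages and 42 and 0 at 24 h. The part of this in the results below was not tested.

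Most Nanog regions of settled 2i were already called at 24 h. Of the 46466 regions, 28129 were called at both times (60.5%), 4951 only at 3 passages (10.7%) and 13386 only at 24 h (28.8%). Seen from the 3 passage list, 85.0% of its 33080 regions were also called at 24 h (95% interval 84.6 to 85.4). In the other direction 67.8% of the 41515 regions of 24 h were called at 3 passages (67.3 to 68.2). The larger number only at 24 h goes with the longer list. With both lists at the same length, taking the peaks with the highest −log10 q, 7324 regions were only at 3 passages and 7286 only at 24 h, which such a limit brings close together by construction. Of the 4951 regions only at 3 passages, 35.2% (33.9 to 36.6) had a −log10 q at 3 passages under the lowest value of the 24 h list. The q of a region at 3 passages does not set its q at 24 h, so this share does not say why a 24 h call was missing. Taking the lowest 24 h value as the limit for both lists left 3206 regions only at 3 passages, while equal length by fold gave 7462.

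The regions of highest fold enrichment were shared. Fold enrichment is the authors' ratio of a peak over its control, and it was used here to rank peaks within a list. All 100 regions with the highest folds at 3 passages were called at 24 h, and all 100 of the highest at 24 h were called at 3 passages. Among the top 1000 of each list, 7 regions of 3 passages lacked a 24 h call and 1 region of 24 h lacked a 3 passage call. Further down the lists parted in shape. When each list was cut into 20 groups of equal size by fold, the share of 3 passage regions called at 24 h went down to 70.3% in the 16th group and was 79.3% in the last. For 24 h regions the share called at 3 passages went down through all groups to 19.7% in the last. Regions only at 24 h therefore came mainly from the low end of that list, with a median fold of 7.53 against 14.4 for the 24 h peaks of shared regions. Regions only at 3 passages had a median fold of 6.68, against 9.69 for the 3 passage peaks of shared regions.

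**Figure D1:**
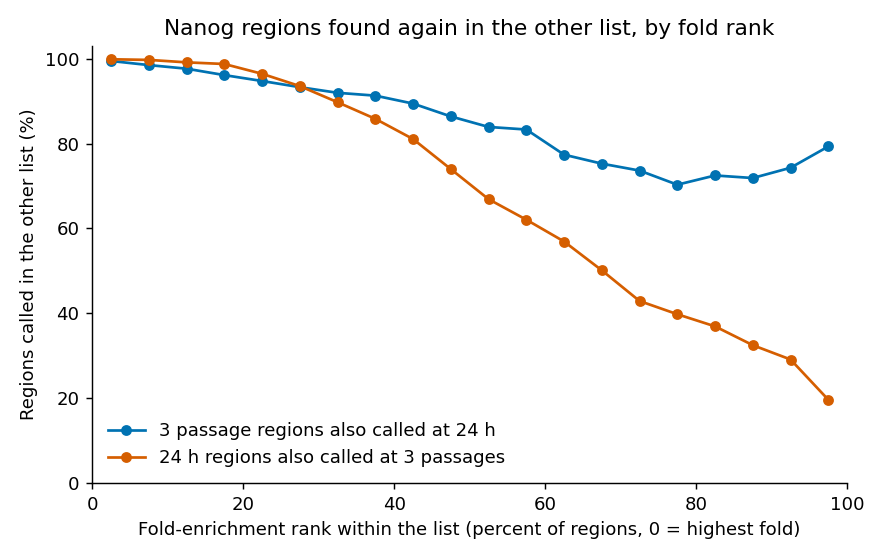
Share of regions called in the other list (vertical axis, percent) against the fold rank within the list (horizontal axis, percent of regions, highest fold at the left), in 20 groups of equal size. Blue points are the 3 passage list and orange points the 24 h list; both start above 99% and part in the lower ranks, where the last group stands at 79.3% for 3 passages and 19.7% for 24 h.

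Within the 28129 shared regions the order of folds was similar at the 2 times. Summits of the 2 lists lay a median of 26 bp apart, and 94.5% lay within 100 bp. Spearman's rho of the fold across these regions was 0.77, a description across sites that share their sequence, line and antibody lot; whether the lists share a control is not given. Folds were lower at 3 passages in most shared regions, and only 4175 of them (14.8%) had the higher value at 3 passages. The scales of 2 lists need not be the same, so ranks were taken among the shared regions alone. By these ranks, 20673 regions (73.5%) stood within 20 percentile points of their place at 24 h. Another 3706 (13.2%) stood over 20 points higher at 3 passages, and 3750 (13.3%) over 20 points lower. The split was near even. Rises and falls of rank within 1 set must balance in sum, although the numbers of regions beyond 20 points need not be equal.

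**Figure D2:**
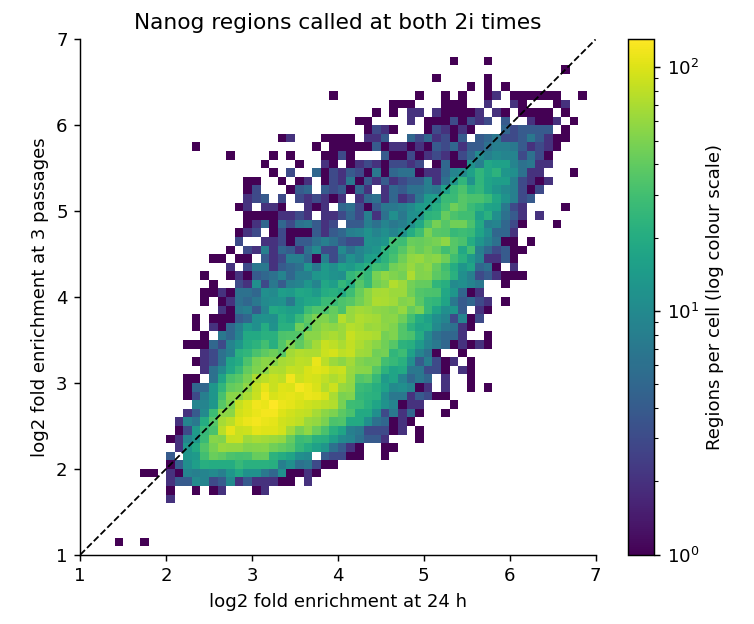
Log2 fold enrichment at 3 passages (vertical axis) against that at 24 h (horizontal axis) for the 28129 regions called at both times; the colour of each cell gives the number of regions on a log scale, and the dashed line marks equal folds. Most regions lie below the line, and 14.8% lie above it.

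The 2 groups of shared regions that changed place differed in what they overlapped. They were drawn by fold rank, so their folds differ by selection. The median fold at 3 passages was 11.98 in regions ranked higher there and 6.71 in those ranked lower. At 24 h the medians were 9.48 and 16.6 in the same order. Among shared regions, overlap with Sox2 and with the other Nanog lists was more frequent at high folds. The part of this selection in the shares below was not tested. Sox2 peaks of 3 passages met 22.0% of the regions ranked higher at 3 passages (20.7 to 23.4) and 8.67% of those ranked lower (7.79 to 9.61), while regions within 20 points had 32.3%. With the Sox2 list of 24 h the order was opposite, at 26.2% and 32.3%, against 46.8% of the regions within 20 points, so both moved groups lay below these. The 24 h Nanog list of the second lot met 76.2% of the regions ranked higher at 3 passages and 34.6% of those ranked lower, against 65.9% of those within 20 points. For Nanog in GFP-high serum cells the shares were 68.5% and 52.5%, against 68.8%. For Nanog in unsorted serum they were 50.7% and 62.6%, against 67.1%. Regions that stood high at 3 passages and low at 24 h were thus more often called at 24 h with the second lot than regions with the reverse pattern.

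Single regions show how far ranks could move. At chr13:62282974-62284144 the fold was 53.4 at 3 passages, against 5.25 at 24 h. This region carried H3K4me3 in all 3 lists, Sox2 in serum and at 24 h but not at 3 passages, and Nanog with the second lot in GFP-high, 24 h and TKO cells but not in unsorted serum. The next was chr13:11029764-11031293, with 50.2 at 3 passages and 6.82 at 24 h, and H3K4me3 was called there at 3 passages alone. The third, chr7:133445069-133446117, had folds of 41.4 at 3 passages and 7.50 at 24 h. It was also marked by H3K4me3 at 3 passages alone, and Sox2 was called there at 24 h alone. All 3 were called at 24 h with the second lot. In H3K4me3 they do not stand for their group. The mark met 7.69% of the regions ranked over 20 points higher at 3 passages (6.85 to 8.60). It met 11.4% of those ranked lower and 11.3% of those within 20 points. In the opposite direction, the fold at chr4:154563787-154564482 was 5.27 at 3 passages, against 31.3 at 24 h. This region was called for Sox2 in serum and at 24 h but not at 3 passages. The same was true of chr9:110989590-110990290, with folds of 4.73 at 3 passages and 25.7 at 24 h. The remaining region, chr7:139512156-139512693, with folds of 5.50 at 3 passages and 31.1 at 24 h, was otherwise called only for Nanog in unsorted serum. None of these 3 was called at 24 h with the second lot in KH2 cells. Positions are of the build mm9 and counted from 1, and no gene was assigned because the annotation at hand is of another build.

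The strongest shared sites were called for Nanog, Sox2 and Oct4 alike. The smallest sum of the 2 fold ranks was that of chr7:60166349-60167447, which ranked 3 by fold at 3 passages, with a fold of 102.6, and 5 at 24 h, with 102.5. Next came chr5:82105265-82106526, with folds of 81.1 at 3 passages and 113.6 at 24 h, and chr14:93225542-93226640, with 80.4 at 3 passages and 96.8 at 24 h. Each of the 3 was called in every Nanog, Sox2 and Oct4 list and in none of the H3K4me3 lists.

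Regions called only at 3 passages and regions called only at 24 h differed in H3K4me3. A peak of any of the 3 H3K4me3 lists overlapped 6.44% of the regions only at 3 passages (5.77 to 7.16) and 20.2% of those only at 24 h (19.5 to 20.9). Shared regions stood between them at 10.8% (10.5 to 11.2), and the share over all 46466 regions was 13.1%. The order was the same with each H3K4me3 list. The serum list marked 3.98% of regions only at 3 passages and 18.9% of those only at 24 h, against 10.8% of all regions. The 24 h list marked 3.13% and 16.9%, against 9.26% of all regions, and the 3 passage list 5.39% and 17.8%, against 11.3%. The 2701 marked regions only at 24 h had low folds, with a median of 6.07, against 7.85 for the 10685 unmarked ones. Their median −log10 q was closer to that of the unmarked ones, at 23.0 against 24.1.

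The difference was largest at low folds. For this, all peaks of a list were put into 5 groups of equal size by fold (quintiles). A region took the quintile of its strongest peak, so the quintiles differ somewhat in their number of regions. The top quintile held folds of at least 17.0 at 3 passages and 21.4 at 24 h. In the lowest quintile, H3K4me3 marked 9.08% of the 1685 regions only at 3 passages and 35.0% of the 5835 only at 24 h. In the middle quintile it marked 5.38% (4.03 to 7.01) and 6.46% (5.51 to 7.51), intervals that overlap. In the top quintile it marked 10 of 138 regions only at 3 passages and 0 of 53 only at 24 h. A count of 0 allows up to 3 counts, here a share of up to 5.66%, and the exact upper limit was 6.72%. With both lists kept to the 33184 peaks of highest fold, the order of the whole classes turned round, at 10.1% of regions only at 3 passages and 8.76% of those only at 24 h. With equal length by −log10 q the shares were 6.96% and 18.8%. With the 24 h Nanog list of the second lot in place of the first, the order also turned round (11.0% and 6.61%).

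Width went with the mark. Among regions over 700 bp and up to 1000 bp wide, H3K4me3 marked 7.56% of those only at 3 passages (6.00 to 9.37) and 40.8% of those only at 24 h (38.5 to 43.1). Over 1000 bp and up to 1500 bp the shares were 12.5% and 53.7%, against 17.1% of shared regions. In regions of up to 500 bp they were 5.18% and 10.6%, against 4.66% of shared ones. The midpoint of the nearest H3K4me3 peak lay a median of 31584 bp from regions only at 3 passages and 24342.5 bp from regions only at 24 h. Within 10 kb of such a peak were 26.3% and 35.8% of them.

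**Figure D3:**
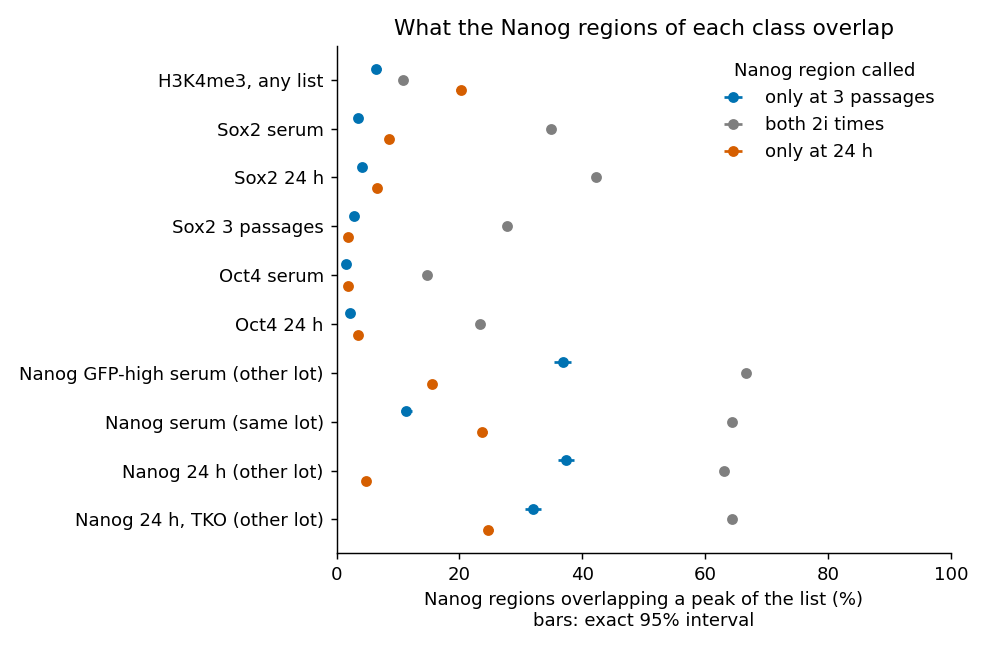
Share of Nanog regions (horizontal axis, percent) that overlap a peak of each other list (rows), for regions only at 3 passages (blue), at both 2i times (grey) and only at 24 h (orange); bars are exact 95% intervals. Regions only at 24 h lead for H3K4me3 at 20.2%, while regions only at 3 passages lead those only at 24 h for all 3 Nanog lists of the other lot, at 37.3% against 4.74% for its 24 h list.

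Sox2 was found mainly at regions that Nanog held at both times. The Sox2 list of 3 passages, which has 1 sample in the labels, met 27.8% of shared regions (27.3 to 28.3), against 17.7% of all regions. It met 2.87% of regions only at 3 passages (2.42 to 3.37) and 1.85% of those only at 24 h (1.63 to 2.10). The Sox2 list of 24 h met 42.2% of shared regions, against 27.9% of all regions. It met 4.08% of regions only at 3 passages (3.55 to 4.67) and 6.58% of those only at 24 h (6.17 to 7.01). Within each of these Sox2 lists the single-time class of the same time had the higher share, while both classes met the longer 24 h Sox2 list more often. The 2 differences were 1.02 percentage points (Newcombe 95% interval 0.52 to 1.56) with Sox2 of 3 passages and −2.50 (−3.18 to −1.79) with Sox2 of 24 h, 3 passages minus 24 h. The Sox2 and Nanog lists of the same time were also alike in whether chromosome Y or unplaced contigs held peaks. The part of this in the 2 differences was not tested. The Sox2 list of serum met 3.47% of regions only at 3 passages and 8.59% of those only at 24 h, against 24% of all regions. No Sox2 peak of any list was found at 91.9% of the regions only at 3 passages, 87.7% of those only at 24 h and 48.1% of the shared ones. With lists of equal length by fold the 2 differences were 3.27 and −1.07 percentage points, and the second turned round with the other 24 h Nanog list.

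Fold rank and Sox2 went together in shared regions. In the top quintile of the 3 passage list, Sox2 of 3 passages met 67.7% of shared regions, and in the lowest quintile 7.15%. By the ranks of the 24 h list these shares were 56.8% and 9.16%. Among regions only at 3 passages, in contrast, the share was flat, at 3.62% (1.19 to 8.25) in the top quintile and 3.38% (2.57 to 4.36) in the lowest. Among strong regions only at 24 h, Sox2 of the same time was more frequent, but less so than in strong shared regions. Sox2 of 24 h met 17 of the 53 regions only at 24 h in the top quintile (32.1%, 19.9 to 46.3). It met 78.9% of the shared regions in the top quintile of the 24 h list. Sox2 of 3 passages met 0 of the 53, with the same limits of 5.66% by 3 counts and 6.72% by the exact interval. Of the 138 regions only at 3 passages in the top quintile, Sox2 of 24 h met 12 (8.70%, 4.57 to 14.7).

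**Figure D4:**
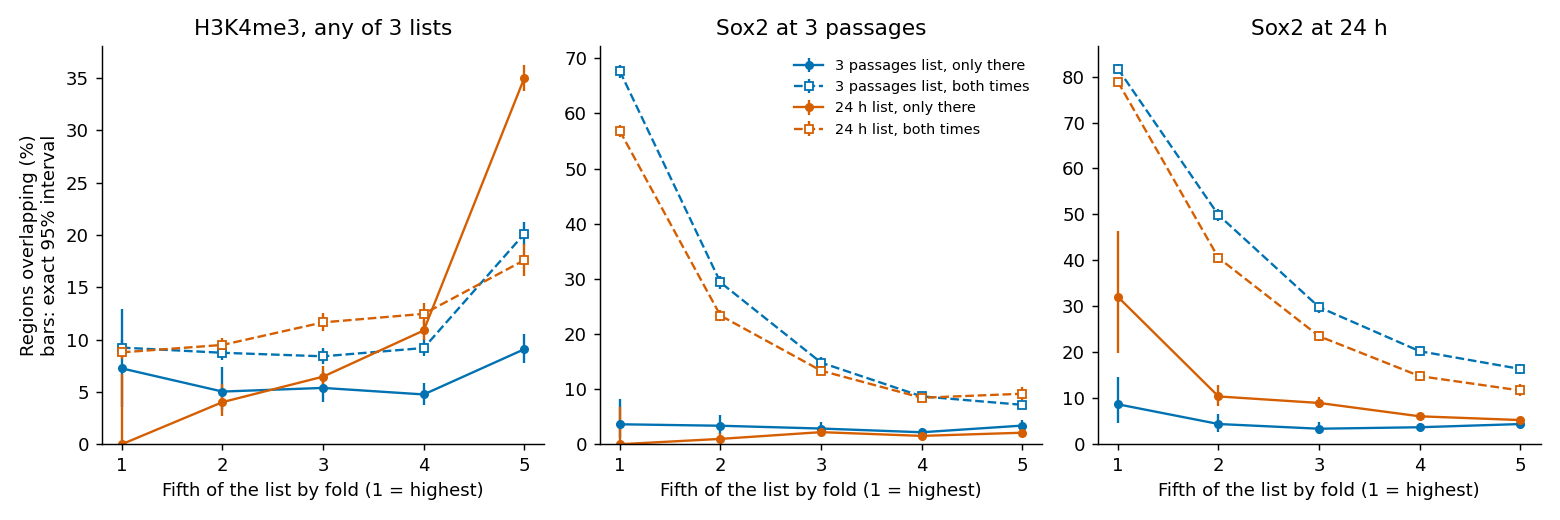
Share of Nanog regions overlapping H3K4me3 (left), Sox2 of 3 passages (middle) and Sox2 of 24 h (right), in percent, by quintile of fold within the 3 passage list (blue) or the 24 h list (orange), with the highest folds at 1. Filled circles are regions called only at that time, open squares regions called at both times, and bars exact 95% intervals; the H3K4me3 share of regions only at 24 h reaches 35.0% in the lowest quintile, and Sox2 of 3 passages is highest in the top quintile of shared regions and stays below 4% in regions only at 3 passages.

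Counted from the Sox2 peaks, Nanog was present at both times at 90.2% of the 8749 Sox2 peaks of 3 passages and 78.9% of the 15268 of 24 h. Nanog was called only at 3 passages at 1.62% and 1.34% of these peaks, and only at 24 h at 2.88% and 5.86%. At 5.31% and 13.9% it was called at neither time. Sox2 peaks with Nanog at both times had a median Sox2 fold of 6.89 at 3 passages and 6.45 at 24 h, and those with Nanog at neither time 5.64 and 4.92. Oct4, measured in serum and at 24 h, was likewise concentrated in shared regions. Its 24 h list met 23.3% of them, 2.12% of regions only at 3 passages and 3.53% of those only at 24 h, against 15.3% of all regions. The serum list met 14.7%, 1.51% and 1.82% in the same order, against 9.6% of all regions.

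Many regions had already been called in serum. Of the shared regions, 66.6% were called in GFP-high serum cells and 64.3% in unsorted serum cells, against 48.7% and 47% of all regions, and 77.3% in at least 1 of the 2 lists, against 60.4%. For single-time regions the 2 serum lists gave opposite orders. In unsorted serum, with the same lot, 11.3% of regions only at 3 passages were called (10.4 to 12.2) and 23.7% of those only at 24 h (23.0 to 24.4). In GFP-high serum cells, with the second lot, the shares were 36.8% (35.5 to 38.2) and 15.5% (14.9 to 16.1). The difference in unsorted serum was −12.4 percentage points, and −8.01 with lists of equal length by fold. Neither list held 58.5% of the regions only at 3 passages, 68.3% of those only at 24 h and 22.7% of the shared ones.

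**Figure D5:**
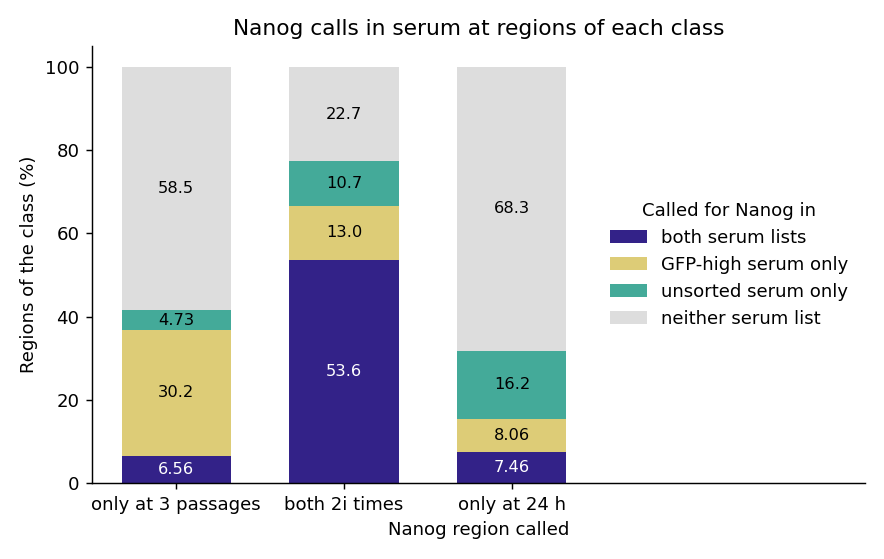
Stacked bars of the share of regions (vertical axis, percent) by their Nanog call in serum, for regions only at 3 passages, at both 2i times and only at 24 h; colours give calls in both serum lists, GFP-high only, unsorted only, or neither. GFP-high serum alone takes 30.2% of regions only at 3 passages and 8.06% of those only at 24 h.

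The second lot also had a list of 24 h. Among single-time regions, this list called those only at 3 passages more often than those only at 24 h. It called 37.3% of the regions only at 3 passages (36.0 to 38.7) and 4.74% of those only at 24 h (4.38 to 5.11), against 63.1% of shared regions and 43.5% of all. In TKO cells at 24 h, with the second lot, the shares were 32.0% and 24.7%, against 64.3% of shared regions and 49.4% of all. Strong regions differed in the same way with the KH2 lists of the second lot. Of the 138 regions only at 3 passages in the top quintile, 134 were called at 24 h with the second lot and 135 in GFP-high serum, but only 20 in unsorted serum. Of the 53 regions only at 24 h in the top quintile, 5 were called at 24 h with the second lot, 24 in GFP-high serum and 29 in unsorted serum. With TKO cells the counts were 27 of 138 (19.6%) and 9 of 53 (17.0%), with intervals that overlap (13.3 to 27.2 and 8.07 to 29.8). Shared regions in the top quintile of the 3 passage list were called in 98.5% of cases at 24 h with the second lot. The share was 96.3% in GFP-high serum, 91.9% in unsorted serum and 86.9% in TKO cells. For shared regions in the top quintile of the 24 h list the shares were 90.3%, 90.7%, 90.6% and 82.9% in the same order. When the 24 h list of the second lot took the place of the first, 13565 regions were only at 3 passages and 2193 only at 24 h. Then H3K4me3 marked 11.0% of the regions only at 3 passages and 6.61% of those only at 24 h. Sox2 of 24 h met 17.1% and 4.29%, and unsorted serum Nanog 41.6% and 8.85%, so these 3 differences turned round. Sox2 of 3 passages kept its order, at 7.80% and 1.32%. That list has 1 sample in the labels, differs in lot and held 21893 peaks on the chromosomes used. List length, lot and whatever the v1 and v3 marks of the labels stand for cannot be told apart in this exchange. The lists also fall into the same groups by their other sequences: that of 3 passages and those of the second lot held 22 to 42 peaks on unplaced contigs and at most 2 on chromosome Y, while those of 24 h and unsorted serum with the first lot held 0 on contigs and 26 and 21 on Y. Its part in the result was not tested.

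Of the regions found in no other Nanog list there were 1394 only at 3 passages (28.2% of that class), 6627 only at 24 h (49.5%) and 2058 shared (7.32%). Of the 25513 peaks of unsorted serum, 71.5% were called at both 2i times, 2.21% at 3 passages and not at 24 h, 12.5% at 24 h and not at 3 passages, and 13.8% at neither. Those called at both times had a median serum fold of 14.4, and the other 3 groups 10.1, 9.07 and 9.34.

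The overlap with H3K4me3 and Sox2 also varied with the serum calls. Among regions called in neither serum list, H3K4me3 marked 6.74% of the 2895 only at 3 passages (5.85 to 7.71), 19.2% of the 9136 only at 24 h (18.4 to 20.1) and 7.37% of the 6388 shared ones. Regions only at 24 h that were also called in unsorted serum and not in GFP-high cells had the highest share, 32.9% of 2173. Sox2 of 3 passages met 2.76% of these regions only at 3 passages, 1.31% of those only at 24 h and 5.51% of the shared ones. For shared regions called in both serum lists this share was 44.5%. The 24 h list of the second lot called, of the regions in neither serum list, 28.0% of those only at 3 passages, 4.33% of those only at 24 h and 39.4% of the shared ones.

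The 5 regions only at 3 passages with the highest folds fell into 2 kinds. The regions chr7:86798717-86800377, chr19:23169104-23170368 and chr1:178573974-178575269 had folds of 55.3, 53.4 and 43.5. They stood 17th, 13th and 46th of the 3 passage list by q. They were also the 3 strongest regions called in unsorted serum and at 3 passages but not at 24 h. All other Nanog lists, and all Sox2 and Oct4 lists including those of 24 h, held a peak at each of them. The nearest peaks of the 24 h list lay 4194, 531 and 9143 bp away. The remaining 2, chr13:62222678-62223720 and chr18:20513855-20514692, had the same fold, 46.7, and the same −log10 q, 255.9. They held no Sox2, Oct4 or H3K4me3 and were called with the second lot in GFP-high serum and in KH2 cells at 24 h, but not in unsorted serum. The region on chromosome 18 was also called in TKO cells, and that on chromosome 13 was not.

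The leading regions only at 24 h were of a different kind. At chr6:114612401-114613175 (fold 48.7) and at chr13:47846638-47847235 (fold 42.4), Nanog was otherwise called only in unsorted serum, and Sox2 only at 24 h. With a fold of 37.2, chr19:21581705-21582340 was called for Nanog in both serum lists and for Sox2 in serum and at 24 h. At chr7:106723594-106724332 (fold 35.3) Nanog was called in both serum lists and Sox2 in serum only. Unlike these, chr8:124034050-124034658 (fold 41.6) was found otherwise in TKO cells at 24 h alone. It also had the highest fold of the regions only at 24 h that both serum lists lacked. The next such regions, chr1:186207958-186208631 and chr7:143677111-143677753, had folds of 29.4 and 29.2 and were called in no other list of the series. None of the 7 regions held an Oct4 or H3K4me3 peak, and no 3 passage peak lay within 10 kb of any of them.

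Of the regions called at both 2i times and in neither serum list, chr10:77925930-77927145 had the smallest sum of its 2 fold ranks, with folds of 37.5 at 3 passages and 36.3 at 24 h. It carried H3K4me3 in all 3 lists and Sox2 at 3 passages only. The next, chr1:156841687-156842480, had folds of 47.2 at 3 passages and 29.8 at 24 h and also held Sox2 at 3 passages only. The third, chr9:64440872-64441763, had folds of 22.4 at 3 passages and 47.7 at 24 h and held no Sox2. All 3 were called with the second lot at 24 h in KH2 and in TKO cells, and none held an Oct4 peak.

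Chromosome X held 3.13% of the regions only at 3 passages (2.66 to 3.65), 2.56% of those only at 24 h (2.30 to 2.84) and 3.31% of shared ones (3.10 to 3.53). Regions only at 3 passages lay a median of 19461 bp from the nearest shared region, and regions only at 24 h 23474.5 bp. Within 10 kb of a shared region were 33.6% (32.3 to 35.0) and 29.6% (28.8 to 30.4).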

How the data were processed

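ChIP-seq peak lists of mouse embryonic stem cells were used as deposited. Tools listed in the submitters' processing notes include MACS2, Bowtie 0.12.7 and BWA 0.5.7, with mm9 as the build; which aligner and control made which list, and the rule by which peaks were kept, are not given in the sources used here. Per the peak names in the deposited files, each list came from pooled replicates against a control, also where the labels give 1 sample. The authors gave each peak a fold enrichment (a ratio over the control), a −log10 q, a −log10 p, a score and a summit offset. The deposited score and −log10 p were not used. The H3K4me3 share joins 3 lists.

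Peaks on chromosomes 1 to 19 and X were merged at 1 bp overlap with Python 3.11.15, numpy 2.4.6 and pandas 2.3.3. The merging and overlap code was tested on simulated data. Exact (Clopper-Pearson) 95% intervals came from scipy 1.17.1, and Newcombe intervals of differences from statsmodels 0.14.6. A region takes the fold of its strongest peak. Named regions are the 5 only at each time with the highest fold, and 3 each of the strongest shared, most moved in rank (ranks among shared regions), called in unsorted serum and at 3 passages but not at 24 h, only at 24 h and in neither serum list, and shared and in neither serum list. The members and lists were chosen with earlier results of these data known. Alternatives were a minimum −log10 q of 10, equal length by q or by fold, a common lowest q, 50% overlap, joining up to 1000 bp, 200 bp summit windows and leaving out X. The exchange of the 24 h list for that of the second lot was added after the data were seen. Sequences were not printed, since no genome of the build of the files was used here.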

Additional observations from a re-analysis of the deposited data

How the results depend on the processing

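A minimum −log10 q of 10 removed no Nanog peak, so its values are the same by construction. A minimum overlap of 50% and leaving out chromosome X each left all 8 results within their intervals or within 1.5 times their counts. With equal length by −log10 q, 7324 regions were only at 3 passages and 7286 only at 24 h, and 77.9% and 78.0% of the regions of 3 passages and 24 h were shared. The differences between the 2 single-time classes, 3 passages minus 24 h in percentage points, were then −11.8 for H3K4me3, 1.76 for Sox2 of 3 passages and −13.6 for unsorted serum Nanog, against −13.7, 1.02 and −12.4 with the lists as deposited. With equal length by fold there were 7462 and 7412 regions, shares of 77.4% and 77.6%, and differences of 1.29 for H3K4me3 (turned round), 3.27 for Sox2 of 3 passages, −1.07 for Sox2 of 24 h and −8.01 for serum Nanog. A common lowest −log10 q of 16.0 left 3206 regions only at 3 passages, shares of 88.9% and 61.7%, and differences of −3.34 for Sox2 of 24 h and −13.8 for serum Nanog. Joining peaks up to 1000 bp apart gave shares of 85.7% and 68.6%. Summit windows of 200 bp gave 83.5% and 66.4%, and differences of −12.3 for H3K4me3, 1.83 and −1.25 for Sox2 of 3 passages and 24 h, and −9.86 for serum Nanog. With the 24 h list of the second lot there were 13565 and 2193 regions, shares of 59.0% and 89.9%, and differences of 4.38, 6.48, 12.8 and 32.7 for H3K4me3, Sox2 of 3 passages, Sox2 of 24 h and serum Nanog (all but Sox2 of 3 passages turned round). The causes were not tested. No paired analysis was possible because each time has 1 list for its 2 samples, and for the same reason no replicate could be left out. Depth per library is unknown.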
